A study of Mus musculus with 6 samples.

Results

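The Zfp900-series zinc finger genes are the mouse genes whose symbols run from Zfp930 to Zfp995 in the count table, chosen by the form of the symbol alone, and they numbered 66 of 55291 gene symbols. RNA was sequenced from full-grown oocytes, the large ovarian germ cells that hold the stored maternal mRNA, of genotype WT and of genotype KO, in which the series text has the deadenylase gene Pan2 deleted. The question of the series was how loss of PAN2, an enzyme that shortens poly(A) tails, alters the transcripts of the oocyte. WT 1 was set against KO 1, KO 2 and KO 3, so that the WT level rests on 1 library, which the test takes to vary as much as the KO libraries do. Each group is described by tissue and genotype only: the labels give no strain, age or treatment, no promoter for a Cre, and not how many oocytes or females went into a library.

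Most KRAB zinc finger genes encode proteins with a KRAB box at the N-terminus and a row of C2H2 zinc fingers at the C-terminus. The fingers bind DNA, often in retrotransposons or imprinted regions, and the KRAB box recruits TRIM28, which brings the histone methyltransferase SETDB1 and silences the bound site. The genes arose by repeated local duplication, so that many members lie in clusters of near-identical copies that differ between mouse strains.

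Of the 66 members, 65 are annotated as protein-coding and Zfp939 as a transcribed unprocessed pseudogene. In the longest annotated coding sequence of each gene a script found the signature of the KRAB A box (Leu-Tyr, any pair of residues, Val, Met or Thr, any residue, Glu) in 62 of the 65 and not in Zfp956, Zfp957 or Zfp974. The number of C2H2 fingers (a cysteine pair spaced by 2 to 4 residues, then 12 residues, then a histidine pair spaced by 3 to 5) had a median of 11 and reached 21 in Zfp974. No finger of this form was found in Zfp957, Zfp935 or Zfp972. By position, 16 members lay on chromosome 4, 15 on chromosome 17, 11 on chromosome 2, 9 on chromosome 7 and 5 on chromosome 8, with 1 to 3 on each of chromosomes 5, 6, 9, 10, 13, 14 and 19.

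Counts per gene summed to 23485093 in WT 1 and 12038990 to 26770521 in the KO libraries, KO 1 being the shallowest, and 3 counts were worth 0.112 to 0.244 CPM (the usual depth-scaled count, here with TMM factors of edgeR). Pan2 stood at 77.6 CPM in WT 1 and at 44.6, 11.9 and 34 CPM across KO 1 to KO 3, all lower, and its log2 fold change of -1.37 (SE 0.53) missed the threshold (edgeR adjusted p = 0.301). It passed without KO 1 (adjusted p = 1.42e-14). Since the counts cover the whole gene and the deleted stretch is unnamed in the labels, this checks the genotype only in part. Oocyte markers made up 3.13% of counts in WT 1 and 2.7 to 3.15% in the KO libraries, with none of the 13 at 0. Granulosa and cumulus markers (12 genes) took 0.00653% and 0.00845 to 0.00964%, theca, stroma and endothelium markers (11 genes, 3 at 0 in all 4 libraries) 0.00182% and 0.00295 to 0.00318%, and blood markers (9 genes, 5 at 0) 0.000141% and 0.000161 to 0.000505%. The shares of these 3 sets, unlike that of the oocyte markers, were higher in all KO libraries than in WT 1. Of 7 granulosa and cumulus markers tested, 6 had a log2 fold change above 0 and 1 below. Cyp19a1, with the lowest p, stood at 13.9 CPM in WT 1 and 35.1, 46.1 and 35.3 CPM across KO 1 to KO 3. Foxl2, not tested, had 6 counts in WT 1 and 2, 0 and 0 in the KO libraries. The part of these sets in the results below was not tested. In pooled cells, fewer cells of a type and less RNA per cell cannot be told apart.

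Zfp979 and Zfp980 on chromosome 4 were higher in the Pan2 KO libraries than in WT 1, and they were the members that passed an adjusted p of 0.05. The labels give no strain, and the part of strain background in this difference was not tested. Zfp979 is also listed as Ssm1b, a name given to a strain-specific modifier that sets DNA methylation on a transgene in mouse embryos. It had 197 counts in WT 1 and 894, 3661 and 3907 across KO 1 to KO 3, which is 8.23 CPM against 72.6, 164 and 146 CPM. All KO libraries lay far above WT 1, with a KO mean of 127 ± 48.3 CPM (SD, n = 3) that was 15.5-fold the WT level (log2 fold change 3.95, SE 0.56, edgeR adjusted p = 0.006). Zfp980 had 61 counts in WT 1 and 151, 534 and 680 in the KO libraries, or 2.55 CPM against 12.3, 23.9 and 25.4 CPM. Its KO mean of 20.5 ± 7.19 CPM was 8.05-fold the WT level, again with no overlap between the groups (log2 fold change 3.01, SE 0.57, adjusted p = 0.0264). KO 1 was the lowest KO library for both genes.

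With 53 members tested, these 2 calls were 3.77% of the members, and no member was called lower. Over all 17799 genes tested 1.93% were called, 1.32% higher and 0.612% lower. Without the filter on low counts, and with DESeq2, 4 members were called higher (Zfp961, Zfp978, Zfp979 and Zfp980) and Zfp990 lower; among all genes DESeq2 called 2.93% higher and 0.849% lower, and edgeR without the filter 2.03% and 1.04%. Both calls were lost when WT 2 was added, where 0 of all genes passed in edgeR and 359 were higher and 691 lower at an unadjusted p under 0.05. The WT 2 column does not follow the gene models of the table, with 0 counts for 31 of the 53 tested members, and was left out for that reason. Without KO 1 the calls were 22 of the 53 tested members higher and 1 lower, where 15.4% of all genes were called higher and 12.7% lower. Those 22 were Zfp979, Zfp980, Zfp978, Zfp961, Zfp984, Zfp982, Zfp930, Zfp932, Zfp936, Zfp938, Zfp939, Zfp940, Zfp942, Zfp943, Zfp946, Zfp950, Zfp951, Zfp955a, Zfp958, Zfp960, Zfp963 and Zfp975, and the lower one was Zfp990. Leaving out KO 2 or KO 3 kept both calls and added Zfp990, which was lower; of all genes 1.63% and 1.84% were then called higher and 0.801% and 1.05% lower.

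**Figure D1:**
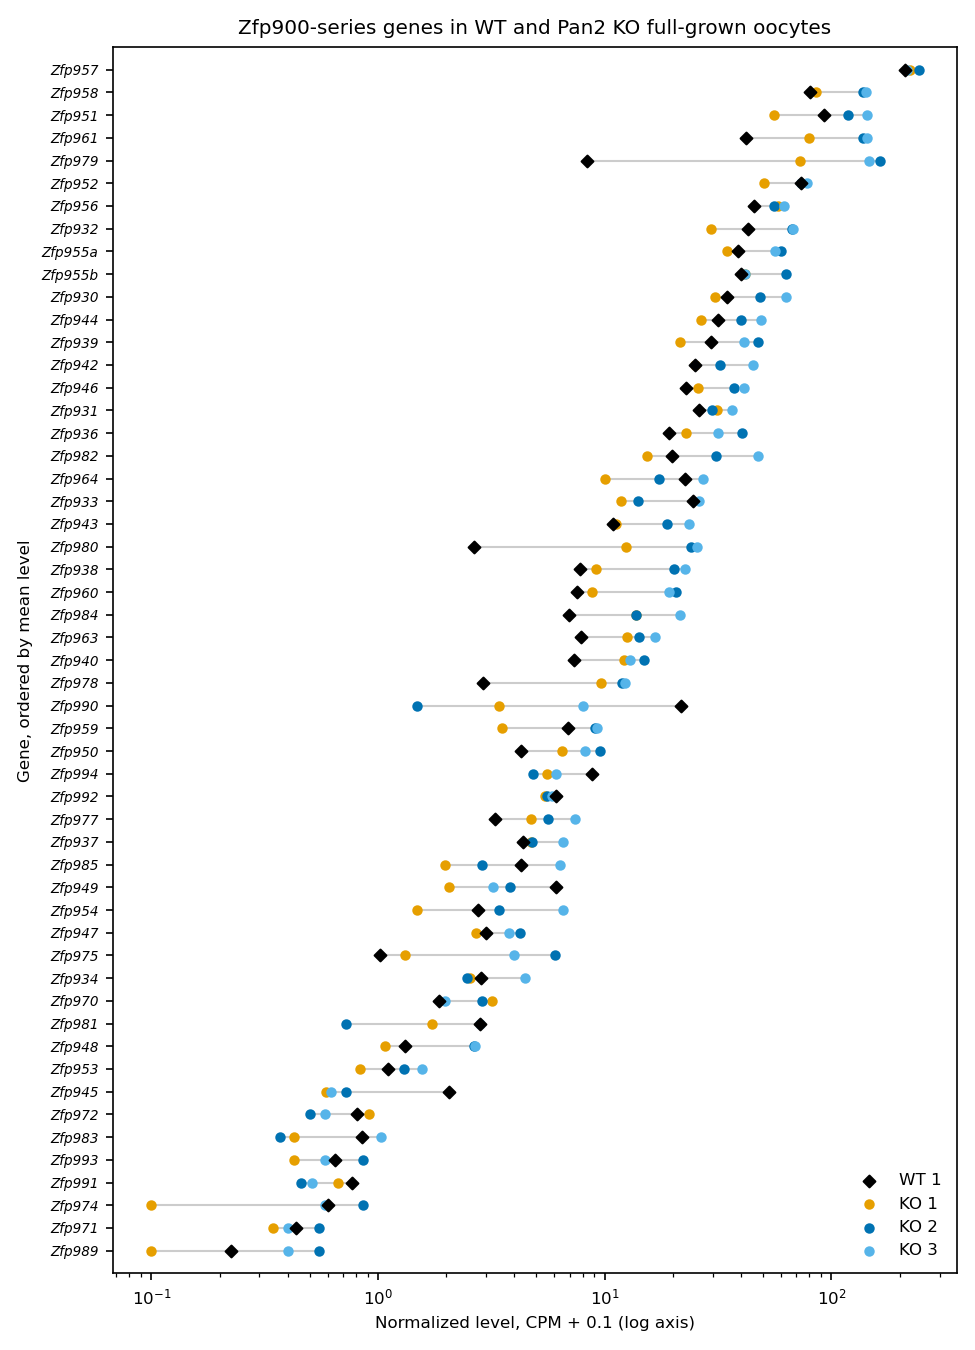
Normalized level of the 53 tested members (rows, ordered by mean) on a log axis of CPM + 0.1, with WT 1 as a black diamond and KO 1, KO 2 and KO 3 as coloured points; the grey line spans the 4 libraries. Zfp979, Zfp980 and Zfp978 have WT 1 far to the left of all KO libraries and Zfp990 has it far to the right. Other members range from a narrow spread, as in Zfp957 (210 to 243 CPM), to a wide one, as in Zfp954 (1.38 to 6.47 CPM).

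The coding stretch of the KRAB A box shows how alike some of the chromosome 4 members are. The lines below give these stretches, each within 1 coding exon, for the 3 members with the lowest p (Zfp979, Zfp980 and Zfp978), for Zfp990 with the lowest log2 fold change, and for 2 neighbours that did not pass, Zfp981 and Zfp982. Each is 102 bases, from the 22nd residue before the signature to the 4th after it, in the sense of the gene, from GENCODE M21 transcripts on mm10; capitals mark the bases that differ from Zfp979.
Zfp979, chr4:147615293-147615394, minus strand: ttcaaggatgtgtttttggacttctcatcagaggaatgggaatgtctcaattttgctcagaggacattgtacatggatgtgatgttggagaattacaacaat
Zfp980, chr4:145699256-145699357, plus strand: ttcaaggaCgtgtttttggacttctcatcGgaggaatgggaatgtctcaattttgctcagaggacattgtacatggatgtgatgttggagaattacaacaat
Zfp978, chr4:147388334-147388435, plus strand: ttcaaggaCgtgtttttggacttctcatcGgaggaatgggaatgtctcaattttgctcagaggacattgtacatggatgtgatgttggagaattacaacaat
Zfp981, chr4:146535433-146535534, plus strand: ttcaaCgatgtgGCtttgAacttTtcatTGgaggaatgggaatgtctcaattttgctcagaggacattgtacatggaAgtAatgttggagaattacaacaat
Zfp982, chr4:147510765-147510866, plus strand: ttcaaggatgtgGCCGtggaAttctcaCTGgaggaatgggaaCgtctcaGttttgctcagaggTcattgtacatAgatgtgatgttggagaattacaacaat
Zfp990, chr4:145534828-145534929, plus strand: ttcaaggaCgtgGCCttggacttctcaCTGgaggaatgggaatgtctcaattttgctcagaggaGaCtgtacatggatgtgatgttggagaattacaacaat
Zfp980 and Zfp978 had the same stretch, which differed from that of Zfp979 at 2 bases. Zfp981 and Zfp990 differed from it at 9 and Zfp982 at 12. The stretch was not compared for the remaining chromosome 4 members, and most genes shown were picked by their values in these data. A link between this likeness and the levels was therefore not tested. Where the proteins could be aligned, Zfp980 and Zfp978 were 94.5% identical over 329 residues, Zfp978 and Zfp979 87.2% over 335, and Zfp980 and Zfp979 82.0% over 401. Much of Zfp980 lies outside these alignments, since it encodes 13 fingers in 645 residues, while Zfp979 and Zfp978 encode 3 each in 407 and 335 residues.

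Zfp978 had 67 counts in WT 1 and 117, 264 and 325 in the KO libraries, which is 2.8 CPM against 9.5, 11.8 and 12.2 CPM. The groups did not overlap, and the log2 fold change of 1.99 (SE 0.47) did not pass (adjusted p = 0.0711). It passed with DESeq2 (adjusted p = 0.00324), without the low-count filter (0.0126) and without KO 1 (8.74e-07). Of its transcript windows of 151 bases, the read length, 45.2% also occur in transcripts of another gene, with 28.5% in Zfp979. The same share was 16.2% for Zfp979, most of it with Zfp978, and 30.4% for Zfp980, most of it with Rex2. The treatment of reads that match several genes is unstated, so the counts of these 3 genes may be split between copies.

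Zfp990 was the member with the lowest log2 fold change and had few shared windows (0.481%). It had 519 counts in WT 1 and 41, 31 and 212 across KO 1 to KO 3. That is 21.7 CPM against 3.33, 1.39 and 7.93 CPM, all KO libraries below WT 1, with KO 3 the highest of them. The WT level was 5.15-fold the KO mean (log2 fold change -2.35, SE 0.66), which did not pass in edgeR (adjusted p = 0.132) and passed with DESeq2 (0.0285), without the filter (1.62e-05) and without KO 1 (7.16e-11), KO 2 (0.0418) or KO 3 (4.42e-06).

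Zfp990 and Zfp980 are neighbouring members at one end of the cluster, and Zfp979 lies near the other end. From Zfp990 to Zfp933 (mm10, chr4:145510759-147848366) the table holds 82 genes over 2.34 Mb, of which 30 were tested and 3 called, all higher: Zfp979, Zfp980 and the non-member Zfp534. Zfp534, another KRAB zinc finger gene named here after its values were seen, went from 1.13 CPM in WT 1 to 5.85, 15.8 and 15 CPM in the KO libraries (log2 fold change 3.44, SE 0.71, adjusted p = 0.0386), and it did not pass in limma-voom (0.0662) or at a mean of at least 5 CPM (0.103). The 3 calls were 10% of the 30 genes, where 1.93% of all genes tested were called. The ends of the stretch are members and it holds both called members, so this share is a description and not a test of the locus. Among the 17 non-members tested 1 was called (5.88%). Shared windows were not computed for Zfp534. Among all 30 genes of the stretch the median log2 fold change was 0.08. All KO libraries lay above WT 1 for 10 of them (33.3%; 29.1% of all genes) and below it for 8 (26.7%; 29.2% of all genes). Outside the calls, the non-members Gm21411 and Gm16211, also named after their values were seen, had all KO libraries above WT 1. Gm21411 had 2.26 CPM in WT 1 and 8.45, 23.5 and 28.7 CPM in the KO libraries (log2 fold change 3.17). Gm16211 had 0.794 CPM and 3.33, 10.7 and 6.17 CPM (log2 fold change 3.08). Of the 17 non-members tested, 6 had all KO libraries above WT 1 and 5 had all below. The chromosome 4 members tested, 13 in number, had a median of -0.03 and ranged from -2.35 to 3.95, the widest range of the chromosomes with more than 2 tested members.

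**Figure D2:**
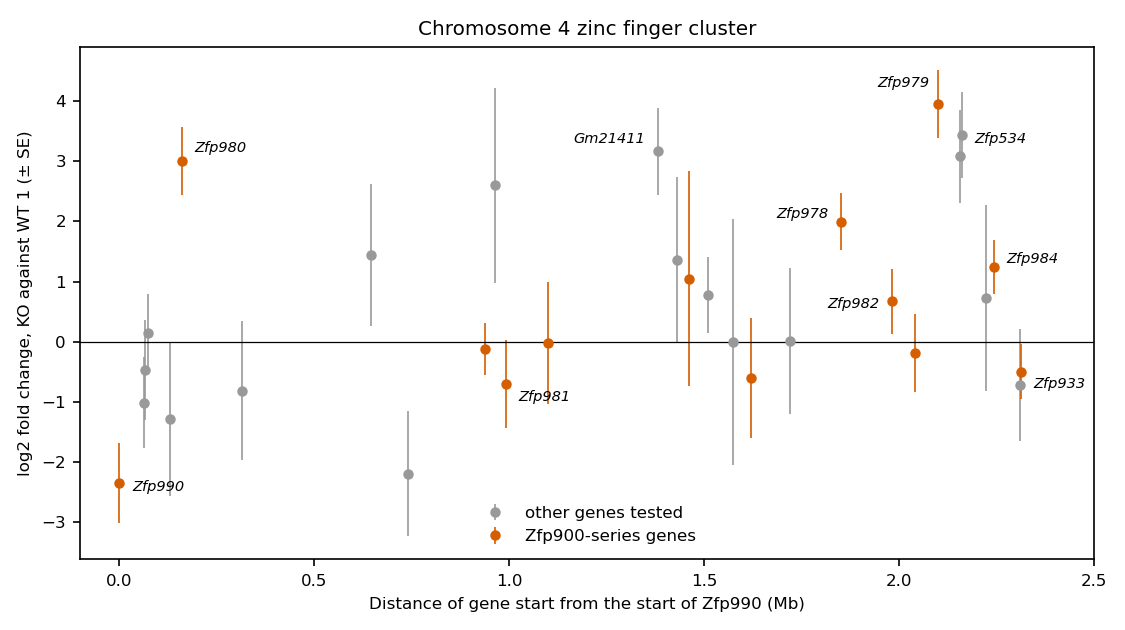
Log2 fold change of KO oocytes against WT 1 (points, with SE as bars) for the 30 tested genes from Zfp990 to Zfp933, by distance of the gene start from that of Zfp990 in Mb; members are orange and other genes grey. Zfp980 and Zfp979 at 3.01 and 3.95 and Zfp990 at -2.35 lie within the same stretch as members near 0.

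The other chromosome 4 members differed less from WT 1. Zfp984, whose exons overlap those of Gm20707, stood at 6.85 CPM in WT 1 and 13.6, 13.6 and 21.3 CPM across KO 1 to KO 3, all above WT 1 (log2 fold change 1.24, SE 0.45, adjusted p = 0.266). Zfp982, which has been linked to stem-cell identity in mouse embryonic stem cells, stood at 19.7 CPM in WT 1 and 15.3, 30.8 and 47.6 CPM in the KO libraries. WT 1 lay within that range (log2 fold change 0.67, SE 0.55, adjusted p = 0.658). Zfp933 had 24.4 CPM in WT 1 and 11.7, 14 and 25.8 CPM in the KO libraries, and Zfp985 4.18 and 1.87, 2.77 and 6.25 CPM, with the groups overlapping for both. For Zfp981 the values were 2.72 CPM in WT 1 and 1.62, 0.626 and 2.73 CPM in the KO libraries, again with an overlap.

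Zfp992 was nearly level, at 6.02 CPM in WT 1 and 5.36, 5.45 and 5.76 CPM in the KO libraries (log2 fold change -0.12, SE 0.44, adjusted p = 0.935). The protein of Zfp991 is 99.0% identical to that of Zfp992 over 573 residues, and that of Zfp993, which has 313 residues, 99.4% over the 313 aligned. Zfp991 and Zfp993 had 0.669 and 0.543 CPM in WT 1 and KO means of 0.446 ± 0.11 and 0.524 ± 0.22 CPM (SD, n = 3). The log2 fold change of Zfp991 was -0.60 (SE 1.00, adjusted p = 0.841). Zfp989 had 3 counts in WT 1 and 0, 10 and 8 in the KO libraries, and Zfp986, Zfp987 and Zfp988 had 0 to 7 counts in any library and were not tested.

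Several promoters of the cluster are also near-copies. Those of the 2 members called higher are printed with the member promoter next nearest to that of Zfp979. The RefSeq table of starts holds entries for 56 members, 10 of them on chromosome 4, each spanning 250 bases before to 50 after the start (GRCm38.p6). Capitals mark a GC box (GGGCGG) in Zfp979, and, in Zfp980 and Zfp982, the bases that differ from Zfp979 in a global alignment.
Zfp979, chr4:147642459-147642758, minus strand: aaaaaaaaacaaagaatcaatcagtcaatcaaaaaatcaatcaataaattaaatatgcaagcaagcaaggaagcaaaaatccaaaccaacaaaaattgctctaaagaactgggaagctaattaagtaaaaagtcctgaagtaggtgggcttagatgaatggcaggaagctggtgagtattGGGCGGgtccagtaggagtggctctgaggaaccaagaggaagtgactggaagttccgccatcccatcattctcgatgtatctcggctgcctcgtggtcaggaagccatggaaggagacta
Zfp980, chr4:145670447-145670746, plus strand: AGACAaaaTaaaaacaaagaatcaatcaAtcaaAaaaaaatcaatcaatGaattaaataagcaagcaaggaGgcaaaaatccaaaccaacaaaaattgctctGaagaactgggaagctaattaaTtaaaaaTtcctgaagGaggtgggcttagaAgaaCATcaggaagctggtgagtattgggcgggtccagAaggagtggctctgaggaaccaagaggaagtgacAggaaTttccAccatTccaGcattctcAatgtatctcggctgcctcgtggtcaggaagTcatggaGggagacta
Zfp982, chr4:147442864-147443163, plus strand: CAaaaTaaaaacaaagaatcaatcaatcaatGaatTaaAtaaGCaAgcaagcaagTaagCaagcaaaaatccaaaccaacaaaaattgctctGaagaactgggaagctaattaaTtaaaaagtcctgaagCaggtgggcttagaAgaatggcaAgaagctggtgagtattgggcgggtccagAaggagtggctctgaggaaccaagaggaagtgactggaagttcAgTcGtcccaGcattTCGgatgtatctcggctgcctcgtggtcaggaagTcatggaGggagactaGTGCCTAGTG
The Zfp982 line is 1 of its 3 entries, the other 2 being 51.1% and 51.8% identical to Zfp979, and it ends 49.3 kb before the start of the gene model that was counted. The 273 matching bases of Zfp980 were 92.5% of those aligned, and Zfp982 reached 91.7%. Besides the members, only Rex2 and Zfp534 were aligned, non-members in the same cluster chosen after their values were seen. Of the promoters aligned, that of Rex2 was nearest to that of Zfp979, at 98.6% identity, and that of Zfp534 reached 89.4%. Rex2 stood at 1.63 CPM in WT 1 and 2.35, 1.97 and 4 CPM in the KO libraries (log2 fold change 0.77, SE 0.63, adjusted p = 0.656). Zfp984, Zfp985, Zfp981, Zfp987 and Zfp988 ranged from 80.1% to 89.3%, while Zfp933 and Zfp993 stood at 54.2% and 48.2%, and members on other chromosomes reached 59.6% at most. GGGCGG on either strand was present in 66.7% of 12 chromosome 4 member promoters, 28.8% of 52 other member promoters and 35.7% of all 32851 promoters in the table; this is a match of letters and not a binding site.

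Levels between members were compared per length, as TPM computed from the counts and exon lengths. Zfp957 was the most abundant member, with a mean of 175 TPM over the 4 libraries, followed by Zfp958 at 119 TPM, Zfp979 at 60.4 TPM, Zfp961 at 58.9 TPM and Zfp951 at 55.1 TPM. Next came Zfp982, Zfp956, Zfp932, Zfp952 and Zfp939 at 48.5, 47.2, 39.9, 39.9 and 35.5 TPM. In all, 25 members had a mean of at least 10 TPM and 20 were under 1 TPM. This mean holds 3 KO libraries and 1 WT library. Zfp979 had 4.99 TPM in WT 1 and 78.8 ± 29.9 TPM (SD, n = 3) in KO oocytes, and Zfp961 24.1 and 70.5 ± 21.5 TPM, so both stood lower in the order of WT 1 alone.

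Zfp957 varied little between libraries. It stood at 210 CPM in WT 1 and 223, 243 and 215 CPM in the KO libraries, a narrow band just above WT 1 (log2 fold change 0.11, SE 0.30, adjusted p = 0.913). Zfp956 was similar, at 45.4 CPM and 58, 56 and 61.7 CPM (log2 fold change 0.37, SE 0.32, adjusted p = 0.68); its exons overlap those of Zfp783. Both belong to the 3 members with no KRAB signature, of which Zfp974, the third, had 0.502 CPM in WT 1 and 0 to 0.76 CPM in the KO libraries.

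Zfp961 on chromosome 8 had 1004 counts in WT 1 and 978, 3079 and 3830 across KO 1 to KO 3, which is 42 CPM against 79.4, 138 and 143 CPM. All KO libraries lay above WT 1, with a KO mean 2.86-fold the WT level (log2 fold change 1.52, SE 0.42), and the gene did not pass in edgeR (adjusted p = 0.124). It passed with DESeq2 (0.0126), without the filter (0.0085) and without KO 1 (1.66e-15). None of its windows of read length is shared, but its exons overlap those of Cyp4f18 on the opposite strand, and no source used here states a strand setting, so reads of the pair cannot be told apart. Zfp958 went from 80.4 CPM in WT 1 to 85.3, 138 and 142 CPM, where KO 1 lay close to WT 1 (log2 fold change 0.60, SE 0.37, adjusted p = 0.54). Zfp963, whose exons overlap those of Gm20422, had 7.73 CPM in WT 1 and 12.4, 14.1 and 16.6 CPM in the KO libraries (log2 fold change 0.90, SE 0.41, adjusted p = 0.387). Zfp930 and Zfp964, the other 2 on this chromosome, had KO values on both sides of WT 1.

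Chromosome 17 held 14 tested members, with a median log2 fold change of 0.28 and none called. Zfp952 was the most abundant of them per length, at 73.6 CPM in WT 1 and 50.3, 73.1 and 78 CPM in the KO libraries (log2 fold change -0.13, SE 0.35, adjusted p = 0.908). The paralogues Zfp955a and Zfp955b, whose proteins are 95.4% identical, stood at 38.6 and 40 CPM in WT 1 and at 50.3 ± 13.9 and 48.6 ± 12.4 CPM (SD, n = 3) in KO oocytes. The exons of Zfp955b and Zfp943 overlap a gene on the opposite strand. Zfp942, Zfp943, Zfp944 and Zfp946 had 10.8 to 31.5 CPM in WT 1 and KO means of 17.8 to 38.3 CPM, and all KO libraries lay above WT 1 for 3 of the 4, the exception being Zfp944. KO 1 was nearly level with WT 1 for Zfp942 (24.93 against 24.91 CPM) and close to it for Zfp943 (11.1 against 10.8 CPM). Zfp960 shared 55.3% of its windows with Zfp97 and had 7.44 CPM in WT 1 and 8.69, 20.5 and 19.1 CPM in the KO libraries. Zfp947, Zfp948, Zfp959 and Zfp983, at 0.752 to 6.81 CPM in WT 1, and Zfp934 and Zfp953 on chromosome 13 had KO libraries on both sides of WT 1.

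A pair of chromosome 17 members were lower in all KO libraries. Zfp945 had 47 counts in WT 1 and 6, 14 and 14 in the KO libraries, or 1.96 CPM against 0.487, 0.626 and 0.524 CPM. The KO values lay close together and well under WT 1 (log2 fold change -1.83, SE 0.67, adjusted p = 0.268). Zfp994 stood at 8.65 CPM and 5.44, 4.74 and 6.02 CPM (log2 fold change -0.68, SE 0.42, adjusted p = 0.538). The only other members that were lower in every KO library and were tested were Zfp990, Zfp991, Zfp992 and Zfp949. Zfp949, on chromosome 9, had 6.02 CPM in WT 1 and 1.95, 3.71 and 3.1 CPM in the KO libraries (log2 fold change -1.03, SE 0.50, adjusted p = 0.418).

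On chromosome 7 the 7 tested members had a median log2 fold change of 0.72. Zfp975 had 22 counts in WT 1 and 15, 133 and 104 across KO 1 to KO 3, or 0.92 CPM against 1.22, 5.94 and 3.89 CPM. KO 1 was near WT 1 and the other KO libraries were several times higher (log2 fold change 2.02, SE 0.85, adjusted p = 0.344). Zfp936, Zfp940 and Zfp977 also had all KO libraries above WT 1, with KO means of 31.5, 13.2 and 5.82 CPM against 19.2, 7.23 and 3.18 CPM. The pseudogene Zfp939 had 29.3 CPM in WT 1 and 21.4, 47.1 and 41.1 CPM in the KO libraries, a range that holds the WT value (log2 fold change 0.33, SE 0.45, adjusted p = 0.805). Zfp954 did likewise at 2.67 CPM in WT 1 and 1.38 to 6.47 CPM in the KO libraries.

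Of the members on other chromosomes, Zfp951 and Zfp932 on chromosome 5 were abundant. Zfp932, which with its paralogue Gm15446 is known to repress endogenous retroviruses in mouse cells, stood at 42.8 CPM in WT 1 and 29.3, 66.6 and 67.3 CPM in the KO libraries (log2 fold change 0.35, SE 0.46, adjusted p = 0.797). Zfp951 stood at 92.4 CPM and 55.9, 119 and 143 CPM (log2 fold change 0.20, SE 0.46, adjusted p = 0.895). In both, KO 1 was below WT 1 and the other KO libraries above it. Zfp938 on chromosome 10 had 7.65 CPM in WT 1 and 9.1, 20.2 and 22.6 CPM in the KO libraries (log2 fold change 1.18, SE 0.54, adjusted p = 0.383), and Zfp950 on chromosome 19 had 4.18 CPM and 6.42 to 9.47 CPM.

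Member by member, more levels lay above WT 1 than below it. Of the 53 tested members 38 had a log2 fold change above 0 (71.7%; 51.3% of all genes tested), with a median of 0.33 against 0.02 over all genes. All KO libraries lay above WT 1 for 23 members (43.4%; 29.1% of all genes) and below it for 6 (11.3%; 29.2% of all genes). The unadjusted p was under 0.05 for 6 members that were higher (8.4% of all genes) and 2 that were lower (4.91%). The 280 other Zfp-numbered genes tested had a median of 0.12, with 5 called higher and 0 lower (1.79% called; 1.93% of all genes). All KO libraries lay above WT 1 for 31.8% of these 280 genes and below it for 27.1%. The difference between the families was not tested. Among the 40 tested members with under 10% of their windows shared, the median was 0.32 and 0 were called in edgeR; 2 were higher and 2 lower at an unadjusted p under 0.05, and DESeq2 called Zfp961 and Zfp990.

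The shift was not the same in each KO library. Across KO 1 to KO 3 the median log2 ratio of the tested members to WT 1, on CPM + 0.5, was -0.15, 0.37 and 0.54, while that of all genes was 0.00, -0.03 and 0.01. Summed over all members, KO 1 at 1093 CPM lay beside WT 1 at 1068 CPM, and KO 2 and KO 3 reached 1668 and 1747 CPM. KO 1 also has the lowest depth. The share of counts in the ribosomal RNA gene CT010467.1 was 2.47% in WT 1 and 1.49%, 0.554% and 0.565% across KO 1 to KO 3, lower in KO 2 and KO 3 than in the other libraries. The mitochondrial share was 0.344% in WT 1 and 0.394%, 0.214% and 0.235% across KO 1 to KO 3, which again sets KO 2 and KO 3 apart from WT 1 and KO 1. The part of depth, ribosomal RNA and mitochondrial RNA in the members' shift was not tested.

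**Figure D3:**
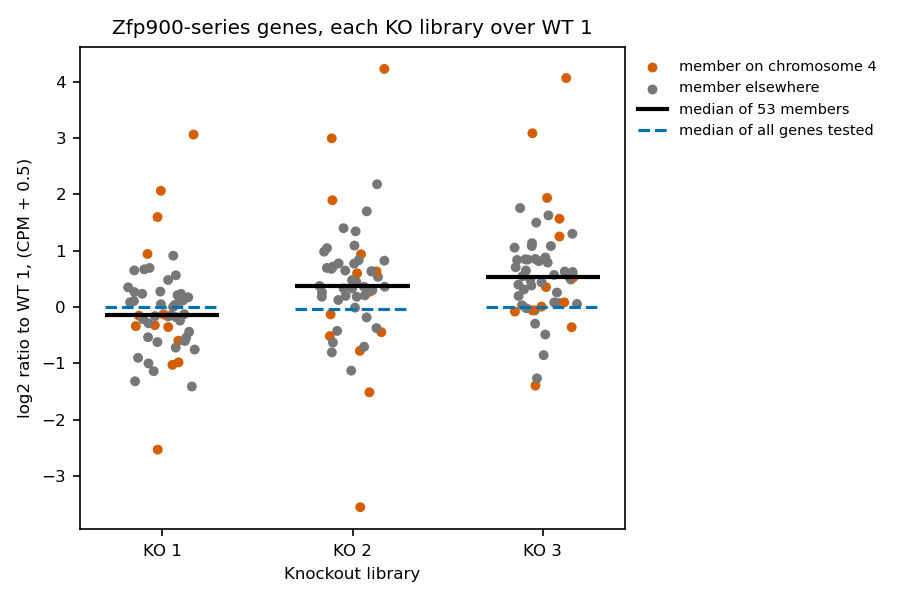
Log2 ratio of each KO library to WT 1, on CPM + 0.5, for the 53 tested members (points, orange on chromosome 4), with their median as a black line and that of all genes tested as a dashed blue line. The members' medians are -0.15, 0.37 and 0.54 across KO 1 to KO 3, and Zfp979 is the highest point in each library.

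The 13 members that were not tested had few or no counts, and 6 of them are on chromosome 2. Outside chromosomes 2 and 4 they were Zfp941, Zfp976, Zfp935 and Zfp995. Zfp935, Zfp968, Zfp969, Zfp973 and Zfp995 had 0 counts in all 4 libraries, which allows up to 0.112 to 0.244 CPM per library from 3 counts. The proteins of Zfp966, Zfp967, Zfp968 and Zfp969 are 100% identical, as are those of Zfp965 and Zfp973, and 70.6% to 100% of the windows of these 6 genes occur in another gene. Of the 12 members with more than 50% shared windows 3 were tested, and their mean levels ran from 0 to 13.2 TPM with a median of 0.0202 TPM. The 24 members with no shared window had a median of 10.2 TPM. The part of shared reads in these low levels was not tested. The chromosome 2 members with counts were Zfp931 at 25.9 CPM in WT 1 and 31.2, 29.8 and 36.5 CPM in the KO libraries, Zfp937 at 4.26 CPM and 4.63 to 6.47 CPM, and Zfp970, Zfp971 and Zfp972 at 0.334 to 1.75 CPM in WT 1.

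**Figure D4:**
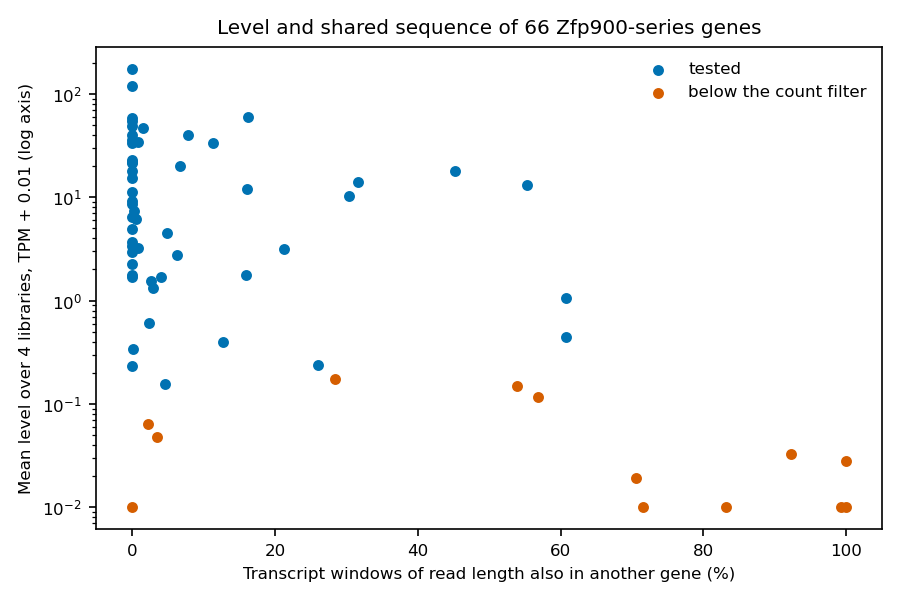
Mean level over the 4 libraries (TPM + 0.01, log axis) against the share of each member's transcript windows of 151 bases that occur in another annotated gene, for all 66 members; orange points were below the count filter. The members at the right, with 70.6% or more of their windows shared, all sit at the bottom of the plot.

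None of 39 genes of the corepressor pathway through which KRAB zinc fingers act passed in either direction in edgeR. Of all genes 1.93% passed, so 0 calls in a set of this size says little about the pathway. Their median log2 fold change was -0.16, against 0.02 over all genes. All KO libraries lay below WT 1 for 14 of them (35.9%; 29.2% of all genes) and above it for 6 (15.4%; 29.1% of all genes). At an unadjusted p under 0.05, 2 were higher and 4 lower (8.4% and 4.91% of all genes). The lowest p was that of Ehmt2, a histone methyltransferase gene, at 9.36 CPM in WT 1 and 3.09, 4.11 and 2.43 CPM in the KO libraries (log2 fold change -1.54, SE 0.46, adjusted p = 0.155). Trim28, the partner of the KRAB box and named for that role, stood at 185 CPM in WT 1 and 145, 101 and 85.3 CPM in the KO libraries, all below WT 1 (log2 fold change -0.75, SE 0.34, adjusted p = 0.388). Without KO 1, where 12.7% of all genes were called lower, both passed (0.000662 and 9.95e-07). Of 8 tested KRAB zinc finger genes with known targets, Zfp819, which has been linked to repression of retrotransposons, rose from 0.502 CPM to 3.41, 6.61 and 5.31 CPM (log2 fold change 3.34, SE 0.69, adjusted p = 0.0395; 0.102 in limma-voom), and the other 7 did not pass. The median log2 fold change of these 8 genes was 0.38.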

How the data were processed

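Libraries were made with a Smart-seq2 protocol primed with oligo(dT) and sequenced as paired reads of 151 bases, per the labels' protocols. Trim Galore 0.6.7, STAR 2.7.10a, featureCounts 2.0.2 and DESeq2 on mm10 are named in the submitters' processing notes; no source used here states the strand or multi-mapping settings. Per the file headers, the table gives unnormalized read counts for each gene beside exon lengths in bases. Priming on poly(A) means that a changed tail length could alter how well an RNA is captured.

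The labels name 3 WT and 3 KO samples; the table holds WT 1, WT 2 and KO 1 to KO 3, matched by column name, and WT 3 was not analysed here. WT 2 enters only as an alternative. Sample titles name full-grown oocytes whereas the design text describes early embryos; the titles were followed. Nothing says that replicates came from separate females, so p-values reflect only library-to-library spread, possibly technical, and WT 1 is taken to have the same spread as KO.

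All genes were fitted with the quasi-likelihood test of edgeR 4.0.16 in R 4.3.3 (TMM, filterByExpr, robust estimation), with Benjamini-Hochberg adjusted p-values and a threshold of 0.05. The scripts were tested on counts simulated for WT 1 against KO 1 to KO 3, with changes given to genes with a mean of at least 50 counts. Of 100 genes changed 2-fold 4% were called in the right direction, and of 100 changed 4-fold 71%. A gene that was not called may therefore still have changed. Alternatives were DESeq2 1.42.0, limma-voom (limma 3.58.1), 3 other normalizations, 2 other filters, robust=FALSE, a threshold of 0.1, leaving out each KO library, and adding WT 2 without and with a replicate block. Amplified reads are not independent molecules, so floors cover counting error only. Coding sequences and shared windows came from GENCODE M21, with which 65 of 66 members agreed in start and end, the exception being Zfp967; promoters came from RefSeq. Members and lists were chosen with earlier results of these data known. Full statistics were given for members past the threshold, the 10 lowest p, the 10 highest levels per length, and the 6 highest and 6 lowest fold changes with no overlap. Other lists give members past the threshold or the lowest p; some marker lists are given by share only. Python 3.11.15, Biopython 1.88 and matplotlib 3.10.9 were used.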

Additional observations from a re-analysis of the deposited data

Results flagged for a closer look

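In WT 2, the library left out of the comparison, 6 members had more than 3 counts and over 2 times the unscaled CPM of WT 1. The WT 2 column does not follow the gene models of the table, so its values below cannot be read as levels of these genes. Zfp958 had 2146 counts in WT 2, or 567 CPM, against 81.9 CPM in WT 1 and 87.2, 132 and 142 CPM in the KO libraries. Zfp942 had 201 counts, or 53.1 CPM, against 25.4 CPM in WT 1. Zfp989 had 39 counts, or 10.3 CPM, against 0.128 CPM, and Zfp934 had 24 counts, or 6.34 CPM, against 2.81 CPM. Zfp974 and Zfp995 had 5 and 4 counts, or 1.32 and 1.06 CPM, against 0.511 CPM and 0 counts. Of the 53 members tested, 31 had 0 counts in WT 2, Zfp979 and Zfp980 among them.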

How the results depend on the processing

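Zfp979 kept its direction and its call in the 12 settings that leave WT 2 out, with log2 fold changes of 3.73 to 4.24 and adjusted p up to 0.0272, and Zfp980 in 11 of them (2.83 to 3.28), failing at a mean of at least 5 CPM (adjusted p = 0.0722). The count of members called higher, 2, became 4 with DESeq2 and without a low-count filter, 1 at a mean of at least 5 CPM, 0 with WT 2 added, and ran from 2 to 22 when a KO library was left out. The count called lower, 0, became 1 with DESeq2, without a filter and with any 1 KO library left out (1 to 1). All genes called, 344, became 654, 868, 126 and 545 with DESeq2, without a filter, at 5 CPM and at a threshold of 0.1, 0 with WT 2 added, and 425 to 4923 without 1 KO library; fewer or more genes enter the tests under the filters. Pan2 passed without a filter (-1.37) and without KO 1 (-1.74), and ran from -1.74 to -0.99 over the KO libraries left out.

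With WT 2 added the median log2 fold change of the members was 1.06, and 2.14 with the replicate block, where the medians of all genes were 0.68 and 1.97; the block called 0 members and 0 genes in edgeR (0 higher and 1 lower among all genes at an unadjusted p under 0.05). WT 1 and KO 1 are the only same-numbered samples of the comparison as reported, so no block could enter it. Of all members tested, 15 turned direction with WT 2 added, 17 with the block as well, 9 in at least 1 of the settings that leave out a KO library, and 1 (Zfp971) under upper-quartile factors and library size alone, and none of these turned values was called. Among the 22 members given full statistics they were, with WT 2 added: Zfp952 0.87, Zfp958 -1.18, Zfp991 0.10, Zfp992 0.84 and Zfp994 0.30. With WT 2 and the replicate block they were Zfp949 0.58, Zfp952 4.48, Zfp958 -0.85, Zfp990 0.45, Zfp991 0.96, Zfp992 2.71 and Zfp994 2.34. Among the same 22, with 1 KO library left out, Zfp951 ran from -0.074 to 0.51 and Zfp952 from -0.25 to 0.043. The cause of these changes was not tested. Depth limits the rarest members: those under about 1 CPM rest on fewer than 30 counts in a library.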
